A study of Mus with 2 samples.

Results

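The liver X receptors (LXRs) are nuclear receptors that bind oxidised cholesterol and, as partners of the retinoid X receptor (RXR), switch on genes that carry cholesterol out of the cell. In macrophages these targets include the membrane transporters Abca1 and Abcg1, the apolipoproteins that take up the exported lipid, and regulators of membrane phospholipid, lipoprotein uptake and fatty acid synthesis. Earlier results of these data were known when a set of 10 such genes was written from general knowledge of LXR targets, not from their values. Followed here were Abca1, Abcg1, Apoe, Apoc1, Apoc2, Mylip, Pltp, Lpcat3, Srebf1 and Arl4c. Of these, 9 had a probe matched to them through RefSeq transcript accessions, out of 20144 genes with a matched probe. Apoc2 had no matched probe and was not analysed here.

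Gene expression was measured in BMDMs, macrophages grown from the bone marrow of male C57BL6/J mice, 10 weeks old, with 10 ng/mL of M-CSF for 7 d. Both cultures then received 10 ng/mL of IL-4 for 24 hr, which drives M2 polarization, together with DMSO as vehicle or with 10 µM of GW4064, a synthetic agonist of the farnesoid X receptor (FXR), the bile acid receptor. FXR is itself an RXR partner, and Apoc2 and Pltp are known FXR targets in liver. RNA from each culture was hybridised to 1 Agilent 1-colour array, on which the brightness of a spot reports the amount of Cy3-labelled RNA bound. With 1 array per condition no difference below could be tested, and no error covers the variation between cultures, between mice or between bulk samples, in which fewer cells of a type and less RNA per cell cannot be told apart. The free-text description of the GW4064 sample repeats the DMSO wording, while its title, source name and treatment give GW4064, which was used.

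All 19 spots of the matched probes exceeded the background threshold on each array, none was marked as uneven or as an outlier, and no spot on either array was saturated. Signals below are the intensities deposited for each array, with the error that the scanner software assigns to each spot. Each log2 difference is GW4064 minus DMSO after the 75th percentile of each array was set to 0, a signal of 1209 with DMSO and 1265 with GW4064. The software error of a log2 difference was 0.20 for most of these spots. At bright spots the software assigned an error of about 10% of the signal, so this value is not a measured spread. The array also carries some probes in many copies, and for 227 of them with 8 or more usable copies the SD of the difference from copy to copy had a median of 0.076. Both describe the reading of an array only.

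None of the 9 genes was 2-fold or more higher or lower with GW4064, a size that 2.04% and 2.71% of the 13532 genes measured reached. Of the 9, 8 were lower and 1 was higher at any size, with a median log2 difference of -0.23 against 0.0068 over all genes measured, of which 48.2% were lower and 51.6% higher. The genes are grouped here by size, after the values were seen, and the software errors of neighbouring groups overlap. Mylip, Arl4c, Abcg1 and Abca1 had differences from -0.60 to -0.39, Pltp had -0.23, and Apoe, Srebf1, Lpcat3 and Apoc1 lay between -0.054 and 0.044. At a threshold of 1.2-fold, which was chosen after these values were seen, 4 of 9 were lower and 0 were higher, against 12.8% and 12.5% of all genes. At 1.5-fold only Mylip was lower, 1 of 9 against 5.56% of all genes, and 0 were higher, against 4.39%.

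**Figure D1:**
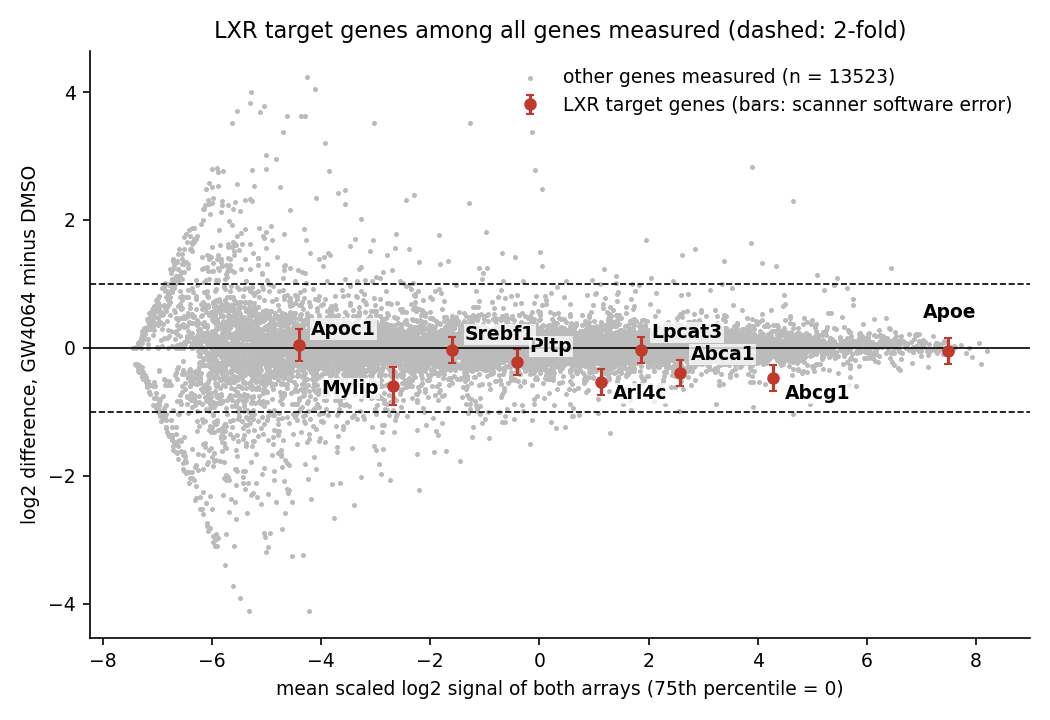
Each grey point is 1 gene, with the mean scaled log2 signal of both arrays on the horizontal axis (75th percentile at 0) and the log2 difference, GW4064 minus DMSO, on the vertical axis; red points are the 9 LXR target genes with the scanner software's error as bars, and dashed lines mark 2-fold. Mylip, Arl4c, Abcg1 and Abca1 lie below 0 by more than their bars and above the lower dashed line, while Apoc1, Srebf1, Lpcat3 and Apoe lie on the line at 0.

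Abca1 hands cholesterol and phospholipid to lipid-poor apolipoprotein A-I, and Abcg1 moves cholesterol on to mature HDL. Abca1 (NM_013454) had a signal of 8252 ± 825 (software error) with DMSO and 6603 ± 660.3 with GW4064. The log2 difference was -0.39 ± 0.20, a level 1.31-fold higher with DMSO. Both transporters were lower on the GW4064 array by more than the assigned software error, 1.90 times it for Abca1 and 2.33 times it for Abcg1. Abcg1 (NM_009593) had 27623 ± 2762 with DMSO and 20784 ± 2078 with GW4064, and its log2 difference was -0.48 ± 0.20, or 1.39-fold higher with DMSO. Copied probes within 1 log2 unit of these levels had a median SD of 0.072 around Abca1 and 0.070 around Abcg1. Of all genes measured, 8.63% had a difference as low as that of Abca1 or lower, and 7.02% as low as that of Abcg1.

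Arl4c is a small GTPase that takes part in carrying cholesterol to the plasma membrane. Its signal (NM_177305) was 3177 ± 318 with DMSO and 2289.8 ± 229 with GW4064, with a log2 difference of -0.54 ± 0.20, and 6.16% of all genes were as low or lower. Spots around the Arl4c spot were also lower on the GW4064 array. In the 5 rows and columns around it, the 24 other spots had a median difference of -0.26, beside -0.076 over all spots of the array. The 15 of the 24 well above background on both arrays had -0.10, beside 0.0047 over all genes read from such probes. Whether this local shift entered the Arl4c value was not tested.

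Mylip, also called Idol, is a ubiquitin ligase that marks lipoprotein receptors for breakdown and so limits cholesterol uptake. It was the only one of the 9 genes with more than 1 probe, and both probes (NM_153789) were lower with GW4064. The brighter probe had 1845 ± 185 with DMSO and 1361 ± 136 with GW4064, a log2 difference of -0.50 ± 0.20. The dimmer probe had 28.7 ± 4.62 and 18.6 ± 3.87, a difference of -0.69 ± 0.38, close to the lowest signals that counted as well above background, 15.7 and 15.1. The mean of both, -0.60, is the value given for the gene, and the brighter probe alone did not reach 1.5-fold. After a normexp correction of the background with an offset of 50, which draws dim signals together, the value of Mylip was -0.25.

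**Figure D2:**
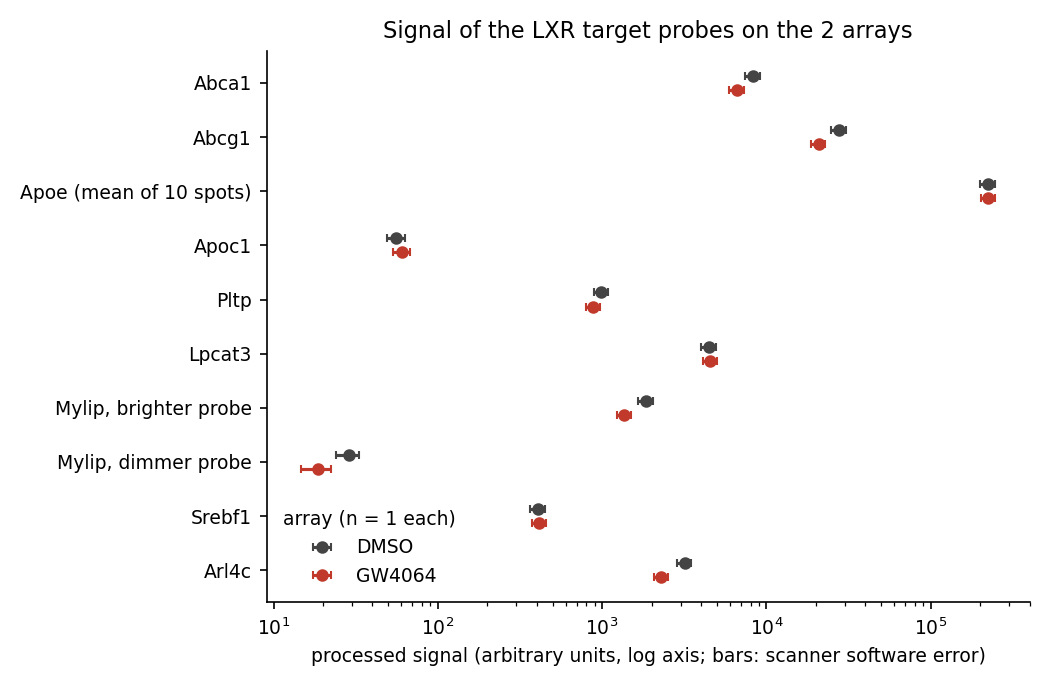
Each row is 1 probe of an LXR target gene, with the signal on a log axis for the DMSO array (grey) and the GW4064 array (red), 1 array each, and the scanner software's error as bars; Apoe is the mean of 10 spots. The red points of Abca1, Abcg1, Arl4c and both Mylip probes lie to the left of the grey ones, and those of Apoe, Apoc1, Lpcat3 and Srebf1 lie within the bars.

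Pltp is a secreted protein that moves phospholipids between lipoproteins, and Lpcat3 is an enzyme that places polyunsaturated fatty acids into membrane phospholipids. Pltp (NM_011125) had 987 ± 98.8 with DMSO and 882 ± 88.3 with GW4064. Its log2 difference of -0.23 ± 0.20 was barely larger than the software error and was -0.16 after the normexp correction. Lpcat3 (NM_145130) was nearly level, with 4460.0 ± 446 and 4553 ± 455 and a log2 difference of -0.036 ± 0.20. Pltp therefore lay between the lower genes and the level ones, with 14.8% of all genes as low or lower.

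Srebf1 encodes SREBP1, a transcription factor that drives fatty acid synthesis and is a direct LXR target. Its single probe (NM_011480) read 406 ± 40.7 with DMSO and 413 ± 41.4 with GW4064, a log2 difference of -0.039 ± 0.20. The gene yields both the SREBP1a and SREBP1c forms, and which form the probe reads was not determined here.

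Apoe, the apolipoprotein that macrophages secrete to accept cholesterol, was read at the most places, since its probe (NM_009696) was printed 10 times. The signal over the 10 spots was lowest at 175685, had a median of 229820 and was highest at 245547 with DMSO, and was lowest at 206307, had a median of 227081 and was highest at 242596 with GW4064. The spots of both arrays thus overlapped almost fully, far below the saturation signal of 779405. The mean log2 difference was -0.054 with an SD of 0.12 over the 10 spots. At 9 of the 10 places the scaled difference was below 0. The exception, at 0.24, was the dimmest DMSO spot, around which 7 others within 300 µm differed 8-fold or more between the arrays. Places with at least 2 such neighbours are called damaged areas here, and without the 3 Apoe spots in them the mean was -0.071. None of the spots of the other 8 genes had such a neighbour.

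**Figure D3:**
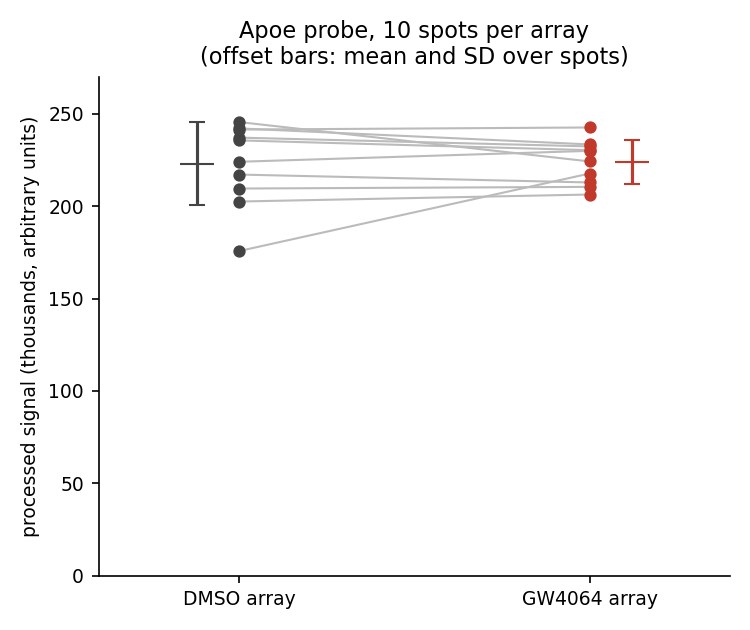
Signal of the Apoe probe, on a linear axis, at each of its 10 spots on the DMSO array (grey) and the GW4064 array (red); lines join the same place on both arrays, and the offset bars give the mean and SD over the spots. The spots range from 175685 to 245547 with DMSO and from 206307 to 242596 with GW4064, and 1 line climbs steeply from the dimmest DMSO spot.

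Apoc1, a small apolipoprotein encoded next to Apoe, was dim on both arrays. Its probe (NM_007469) had 56.0 ± 6.87 with DMSO and 60.4 ± 7.09 with GW4064, a log2 difference of 0.044 ± 0.24. It was the only one of the 9 genes above 0, and it was below 0, at -0.14, after scaling to the spike-in RNA added before labelling. The neighbours Apoe and Apoc1 therefore both differed by less than the software error.

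These values were recomputed under 11 other ways of processing. Abca1, Abcg1, Arl4c, Mylip, Pltp, Apoe, Lpcat3 and Srebf1 were below 0 in all 11, and Apoc1 was above 0 in 10. Several ways could not change a gene read at 1 unmarked spot, well above background and outside damaged areas. These were keeping marked spots, the 2 other filters on dim probes, the brightest probe and leaving out damaged areas. Median scaling, spike-in scaling and the deposited table each moved all 9 genes by a constant. Abca1 ranged from -0.57 to -0.33, Abcg1 from -0.66 to -0.47 and Arl4c from -0.73 to -0.51. Scaling to the spike-in RNA gave the lowest value of each of the 9 genes, since it set every difference lower by 0.19 and moved the median of all genes from 0.0068 to -0.18. As the 9 genes and that median moved by almost the same amount, 8 stayed below it and Apoc1 stayed above it. That split is no separate support. In that setting all 9 genes were below 0 and 5 of 9 genes were 1.2-fold or more lower, against 32.2% of all genes. After the normexp correction 3 of 9 were, Mylip no longer among them, against 9.75% of all genes.

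**Figure D4:**
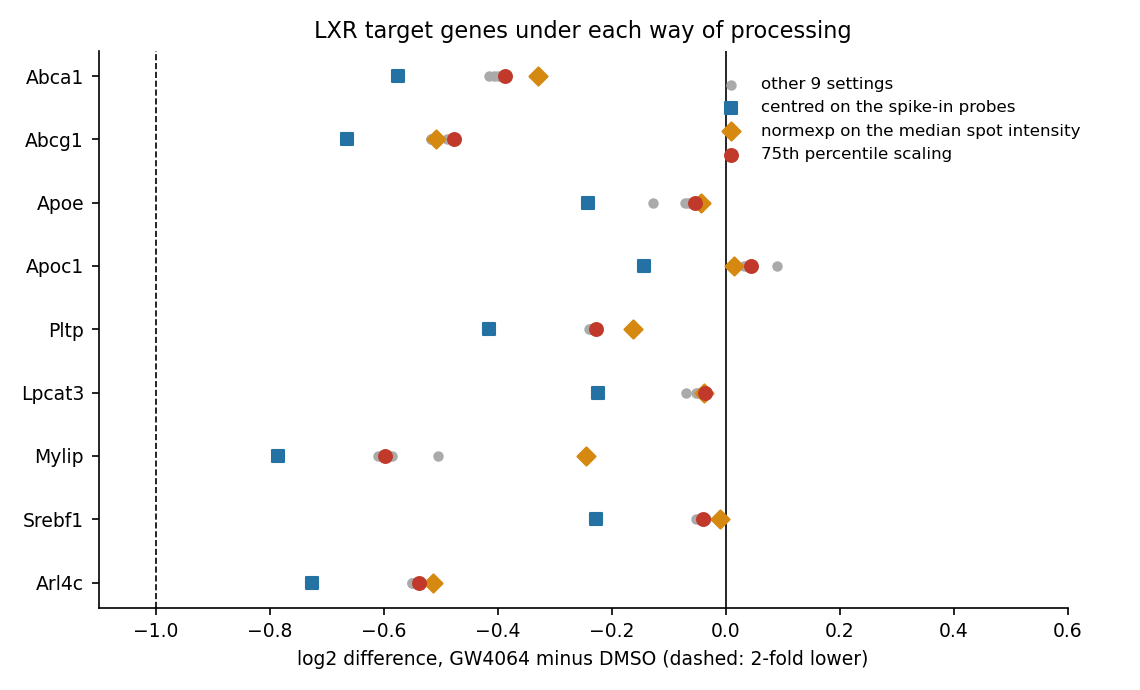
Log2 difference, GW4064 minus DMSO, of each LXR target gene under the 75th percentile scaling (red circle), spike-in scaling (blue square), the normexp background correction (orange diamond) and the other 9 settings (grey). The blue squares lie farthest left in every row, Apoc1 alone crosses 0, and no symbol reaches the dashed line at 2-fold lower.

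The LXRs themselves are encoded by Nr1h3 (LXRalpha) and Nr1h2 (LXRbeta). Nr1h3 was lower with GW4064 on both of its probes. The first read 3663 with DMSO and 2763 with GW4064, a log2 difference of -0.47 ± 0.20, and the other read 7539 and 5697, also -0.47 ± 0.20. Nr1h2 was nearly level, with 17153 and 16979 and a difference of -0.080 ± 0.20. The value of Nr1h3 lay between those of Abca1 and Arl4c, and 7.07% of all genes were as low or lower.

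The RXR genes, whose products pair with LXR and FXR alike, had smaller differences than Nr1h3, though the software errors of Rxra and Nr1h3 overlap. Rxra was dim on both probes, with 85.0 and 66.9 on the first (-0.41 ± 0.23) and 47.9 and 46.0 on the second (-0.12 ± 0.27). The software errors of its probes overlap. Rxrb had a difference of 0.038 ± 0.20 from signals of 9466 and 10174. Rxrg had 0.049 ± 0.20 on 1 probe, while a second one did not stand out from background. Rxrb and Rxrg were below 0, at -0.15 and -0.14, after spike-in scaling. Over the list of 12 receptors, partners and coregulators, which also holds corepressors and coactivators such as Ncor1 and Ncoa1, 5 were higher and 7 lower with a median of -0.033, and none was 1.5-fold or more away from 0. After spike-in scaling all 12 were lower, with a median of -0.22 against -0.18 over all genes. That scaling lowered almost every gene of the array by 0.19. Counts of genes below 0 after it, here and in the lists below, therefore carry that shift.

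Other reported LXR targets lay on both sides of 0. Of 16 such genes 11 could be measured, with 5 higher, 6 lower and a median of -0.035. After spike-in scaling 3 were higher and 8 lower, with a median of -0.22 against -0.18 over all genes. Mlxipl, which encodes the glucose-sensing factor ChREBP, was the only gene of this list that was 2-fold or more higher. Its probe read 32.8 with DMSO and 82.1 with GW4064, with a difference of 1.26 ± 0.30 on the log2 scale and a ratio of 2.39. The signal was dim and the normexp correction gave 0.28. Scd1, the desaturase that makes oleic acid, was the other gene at 1.5-fold or more, with 543 and 982 and a difference of 0.79 ± 0.20; it is named because it was the only other one, a choice made after its value was seen. Fasn, the fatty acid synthase, read 251 and 265 (0.013 ± 0.21), as level as Srebf1.

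Abcg5, Abcg8, Cyp7a1, Apoc4 and Arg2 did not rise above the background threshold on either array. Most of these are known for their roles in liver or intestine.

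Among the lipoprotein receptors that Mylip marks for breakdown, Vldlr and Lrp8 were both lower with GW4064. Vldlr was dim, with 41.2 and 25.3 on its measured probe and a difference of -0.77 ± 0.36, which was -0.12 after the normexp correction. Lrp8 had 75.4 and 56.3 on 1 probe (-0.49 ± 0.23), and on the other 32.4 with DMSO and 13.7 with GW4064, where it was not well above background, so that it was at least 2.24-fold lower there.

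Of 16 other genes that move or store cholesterol, such as Scarb1, Npc1 and Soat1, 14 were measured, with 6 higher, 8 lower and a median of -0.044. After spike-in scaling 3 were higher and 11 lower, with a median of -0.23 against -0.18 over all genes. Before that scaling none had a value 2-fold or more away from 0. For Cav1 that value is a bound. It read 26.8 with DMSO and 13.7 with GW4064, where it was not well above background. It was thus at least 1.86-fold lower, at a spot in a damaged area. Of the 6 genes for partners and processing of SREBP, 4 were higher and 2 lower with a median of 0.030, and none reached 1.5-fold. After spike-in scaling 5 were lower and 1 was higher, with a median of -0.16 against -0.18 over all genes. The 1 was Insig1, which holds SREBP in the endoplasmic reticulum and was chosen after its value was seen, with 685 and 989 and a difference of 0.46 ± 0.20.

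FXR, the receptor that GW4064 activates, is encoded by Nr1h4. Its probe read 3.46 with DMSO and 3.24 with GW4064, and neither signal was well above background. The Nr1h4 spot lay in a damaged area, with 4 such neighbours. The paper detected Nr1h4 mRNA in BMDMs by real-time PCR, so this reading does not show that FXR was absent. Nr0b2, a classical FXR target encoding the corepressor SHP, was higher with GW4064, from 22.5 to 45.5, a log2 difference of 0.95 ± 0.32. Its spot lay in a damaged area, with 2 such neighbours, and the normexp correction gave 0.35. Of the other classical targets, Slc51b was at least 3.14-fold lower, with 45.3 and 8.72. Abcb11 read 3.15-fold lower, with 58.5 and 19.5, a ratio of the scaled signals as read and not a lower bound. Neither was well above background on the GW4064 array, and the normexp correction gave log2 differences of -0.67 and -0.48. Abcb4 had a difference of 0.12, and Slc51a and Fgf15 did not pass the background threshold. The measured textbook targets of FXR thus lay on both sides of 0, and Nr0b2, Slc51b and Abcb11 were dim on both arrays and each read at 1 spot.

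**Figure D5:**
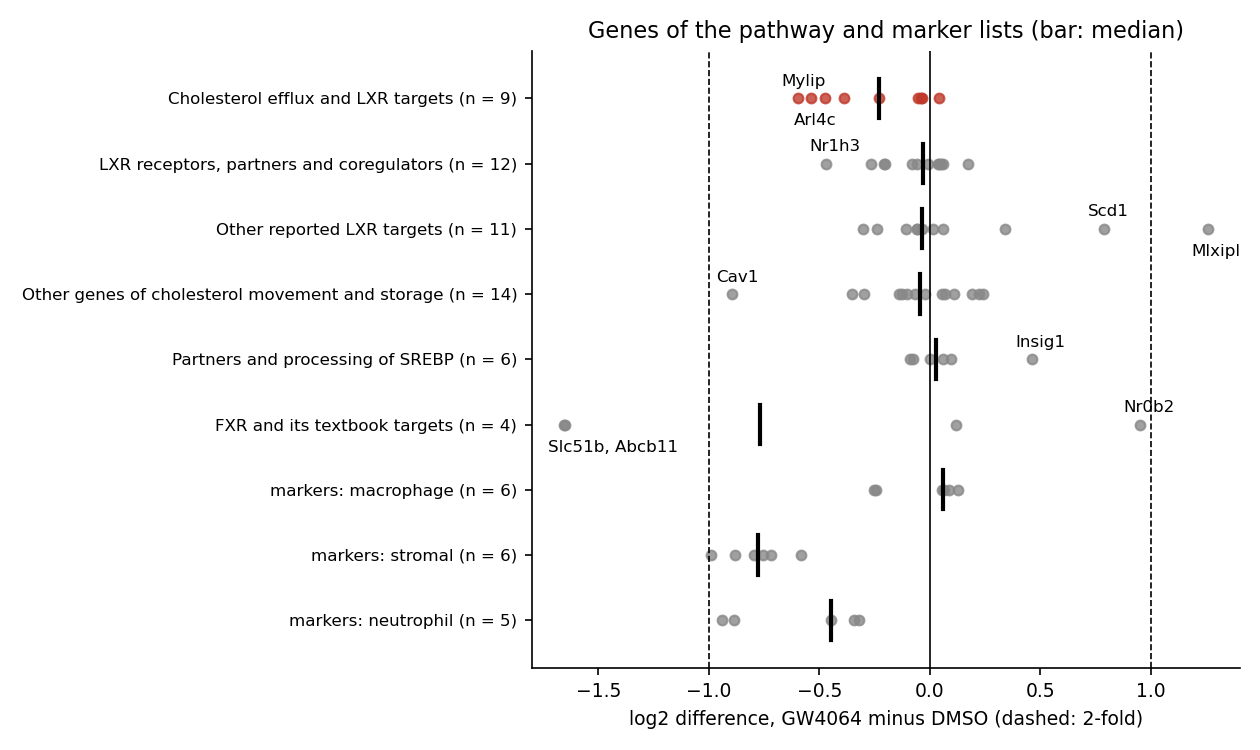
Log2 difference, GW4064 minus DMSO, of each measured gene in the LXR target group (red), 5 pathway lists and 3 marker lists (grey), with the median of each as a black bar, the number measured in brackets and dashed lines at 2-fold. Nr1h3 sits at the level of the lower LXR targets, Scd1 and Mlxipl lie to the right, and all stromal and neutrophil markers lie to the left of 0.

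Markers of other cell types differed between the cultures as well. Of 7 macrophage markers, 6 had a probe, and all 6 passed the background threshold on both arrays with differences from -0.25 (Adgre1) to 0.13. After spike-in scaling all 6 were below 0, with a median of -0.13 against -0.18 over all genes. Of 7 stromal markers, 6 were measured and all 6 were lower with GW4064, with a median of -0.78 and a summed signal of 36791 with DMSO and 20611 with GW4064; Lum was not well above background. Of 6 neutrophil markers, 5 had a probe and all 5 were lower, with a median of -0.45 and a summed signal of 13467 and 8751. The part of these cells in the lower signals of Abca1, Abcg1, Arl4c, Mylip and Nr1h3 was not tested. Of 3 to 4 markers each for dendritic, B, T and endothelial cells, 2, 1, 1 and 2 were measured, with summed signals of 75.3, 54.6, 222 and 181 with DMSO and 166, 16.5, 261 and 148 with GW4064. Among them the dendritic marker Flt3 was at least 4.94-fold higher at a spot in a damaged area, with 10.5 and 81.5. That 81.5 is part of the dendritic sum of 166. A second Flt3 probe, with 3.80 and 5.31, was well above background on neither array. The B cell marker Ms4a1 was at least 2.47-fold lower, with 35.8 and 7.08. The IL-4 response genes, known markers of M2 macrophages, passed the background threshold on each array, with a log2 difference of 3.82 for Arg1, 0.91 for Retnla, 0.066 for Chil3 (below 0 after spike-in scaling) and -0.34 for Mrc1, and a summed signal of 226290 and 333567. Of 3 hepatocyte markers Ttr was measured, with 44.9 and 46.3, and Alb and Serpina1a were not well above background. Of 3 adipocyte markers Adipoq was measured, with 25.8 and 36.5, and neither Plin1 nor Lep passed the background threshold.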

How the data were processed

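The 10 genes and the pathway and marker lists were written from general knowledge, with earlier results of these data known. The authors deposited scanner output made with Agilent Feature Extraction 10.7.1.1, per the submitters' processing notes, and a log2 table of both arrays. The deposited intensity of each spot was background-subtracted and detrended within its array and was not scaled between arrays. Subtracting one column of that deposited log2 table from the other gave the difference computed here for 39200 of 39200 probes, within 0.001 after a constant of 0.0022. Its columns have medians of 0.035 and -0.051, the baseline used to centre each probe is unknown, and its direction and scale follow from this match.

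Here, log2 intensity minus each array's 75th percentile over 43020 non-control spots was used. Spots marked as non-uniform or as outliers among copies were left out, and copies were averaged. A probe well above background on 1 array only was held on the other at its own value or at a floor, whichever was higher. The floor was the lowest value that counts as well above background, and a fold held at it is a lower bound ("at least"). The difference was set to 0 where the bound pointed the other way. Probes well above background on neither array were left out, and a gene is the mean over its other probes. Probes well above background made up 57.4% with DMSO and 58.5% with GW4064. The error of a spot is the software's processed signal error. Symbols came from RefSeq accessions of GRCm38.p6, which named 26581 probes and left 12848 unnamed; the array design used another build (mm9), so no coordinates are given, and no probe, promoter or protein sequence was used here.

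With 1 array per condition there was no test, and 2-fold was the threshold. The number of arrays limits the precision. The arrays shared 1 slide and 1 scan. Genes named besides the 10 were the LXR and RXR genes, Nr1h4, Nr0b2, Vldlr and Lrp8 as receptors degraded through Mylip, and any gene of the pathway lists 2-fold or more away from 0; other genes named are examples chosen after their values were seen. A further gene fixed for naming is not reported here. The calculation was tested on simulated data. Alternatives were quantile, median, loess (span 0.3) and spike-in scaling, the deposited table, normexp (offset 50, median spot intensity), marked spots kept, 2 other filters on dim probes, the brightest probe, thresholds of 1.5-fold and 4-fold, and leaving out damaged areas (at least 2 neighbours within 300 µm that differ 8-fold); a threshold of 1.2-fold was chosen after seeing the data. Tools were limma 3.58.1 in R 4.3.3, and pandas 2.3.3, numpy 2.4.6, statsmodels 0.14.6 and matplotlib 3.10.9 in Python 3.11.15.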

Additional observations from a re-analysis of the deposited data

How the results depend on the processing

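No paired analysis was possible because DMSO and GW4064 were represented by 1 array apiece. The number of LXR target genes 2-fold or more higher or lower was 0 in each of the 11 other ways of processing. With 0 at 2-fold, a threshold of 4-fold could only give 0. At 1.5-fold 1 was lower, and at 1.2-fold, a threshold chosen after the data were seen, 4 were lower, with 0 higher at both. The median of the 9 genes lay between -0.42 (spike-in scaling) and -0.16 (normexp). Of 99 recomputed gene values 98 stayed within the software error of the value reported. The exception was Mylip after the normexp correction, at -0.25. Many of the 98 were fixed in advance and do not measure stability. The same limit applies to the counts of 0 at 2-fold. Several ways could not change genes read at 1 spot, and others moved all 9 genes by a constant. Over all genes, 276 were 2-fold or more higher and 367 lower (42.9% of them higher). These were 212 and 518 (29.0%) with spike-in scaling, 698 and 767 without a filter on dim probes, 495 each with the deposited table, whose dim probes are not held at a bound, 72 and 64 (52.9%) after normexp, 107 and 164 for probes well above background on both arrays, and 168 and 202 without damaged areas. Signal close to background limits what Apoc1, the dimmer Mylip probe, Rxra, Vldlr, Lrp8, Mlxipl, Nr0b2, Slc51b and Abcb11 can show, among other dim genes.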
